A study of Mus musculus with 9 samples.

Results

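A set of 9 genes that drive the making of new mitochondria were followed in neonatal rat ventricular myocytes (NRVMs) that overexpressed LacZ, Nrf1 or Nrf2. They were picked by name for their known role, at a time when earlier results of these data were known: *Ppargc1a*, *Ppargc1b*, *Lpin1*, *Nrf1*, *Gabpa*, *Esrra*, *Tfam*, *Tfb2m* and *Polg*. All 9 were found among the 14386 genes with read counts in every library, and all 9 passed the filter on low levels that left 11302 genes for testing. The symbol *Nrf1* in this list stands for nuclear respiratory factor 1. It is a different gene from the overexpressed factor Nrf1, which is encoded by *Nfe2l1* and was not analysed here. To keep them apart, the gene is written as nuclear respiratory factor *Nrf1* below, and Nrf1 alone means the overexpressed factor and its libraries.

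Cells add mitochondria by raising nuclear and mitochondrial gene expression together. The coactivators PGC-1α (*Ppargc1a*) and PGC-1β (*Ppargc1b*) do not bind DNA themselves, and they work by docking on transcription factors such as nuclear respiratory factor 1, GABPα and the oestrogen-related receptor ERRα. These factors switch on respiratory chain genes and the genes for TFAM, TFB2M and the polymerase POLG, which package, transcribe and copy mitochondrial DNA (mtDNA). In the newborn heart this programme accompanies the move from sugar to fatty acids as the main fuel.

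The cells were primary ventricular cardiomyocytes of 1- or 2-day-old Sprague Dawley rat pups. Every culture was infected with an adenovirus at a multiplicity of infection of 50 and collected 48 h later, and every virus expressed its insert from a CMV promoter, which is active in any infected cell type, beside a red fluorescent protein. The 3 groups were the LacZ control, mouse Nrf1 and mouse Nrf2, with 3 libraries each, and no uninfected culture was included. No source used here says that the libraries of a group came from separate isolations, so the p-values measure the spread between these libraries, which may be technical.

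The 9 libraries held between 7845554 and 11793864 reads on the genes analysed. Libraries are called a, b and c within each group in order of falling depth. They could not be tied to the replicate numbers of the samples. *Nfe2l2*, the gene for Nrf2, had a median level of 77443 normalised read counts in the Nrf2 libraries against 3473 with LacZ and 2868 with Nrf1. A normalised read count is the number of reads of a gene divided by the size factor of its library, a measure of relative depth. Gene lengths were not used, so levels are compared between libraries and not between genes.

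Cell type markers moved between the groups and are given here because they bear on every value below. The summed level of cardiomyocyte markers (11 matched of 14 listed) ranged from 128090 to 147241 with LacZ, from 138830 to 140611 with Nrf1 and from 153304 to 156874 with Nrf2. This sum hid unequal changes. With Nrf1, 7 of the 11 fell, among them *Myh7* (log2 fold change -1.06), *Myl2* (-0.995) and *Tnni3* (-0.96), and 2 rose, *Actc1* (0.64), which had the highest level of the 11, and *Ryr2* (0.83). The median over the 11 was -0.34 with Nrf1 and 0.22 with Nrf2, where 7 rose and 2 fell. The summed level of fibroblast markers (11 matched of 11) ranged from 123835 to 129928 with LacZ, from 31694 to 34203 with Nrf1 and from 64588 to 69772 with Nrf2. Of these fibroblast markers, 11 of 11 fell with Nrf1 and 10 of 11 with Nrf2. The 11 leukocyte markers summed to between 1936 and 2824 with LacZ, between 1112 and 1148 with Nrf1 and between 1057 and 1164 with Nrf2. The 8 endothelial markers summed to between 1435 and 1476, between 1039 and 1147, and between 1011 and 1248 in the same order, and the 4 smooth muscle markers to between 31900 and 38575, between 58723 and 59551, and between 46524 and 49777. The smooth muscle sum rested mainly on *Acta2* and *Tagln*, which rose with both factors. *Cnn1* also rose (1.08-fold with Nrf1 and 1.76-fold with Nrf2). *Myh11* fell to 0.50-fold with Nrf1 (limma adjusted p = 1.35e-11) and to 0.86-fold with Nrf2 (limma adjusted p = 0.00368). No matched marker in any list was at 0 in any group. In these bulk libraries fewer cells of a type and less RNA per cell cannot be told apart, and the part of the cell types in the results below was not tested. Values divided by the summed cardiomyocyte markers of the same library, a setting chosen after seeing the data, are given below where they move a called log2 fold change by more than 1.5 times.

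The PGC-1 pair moved in opposite directions under both factors. *Ppargc1a* had 521, 505 and 511 normalised read counts in LacZ libraries a, b and c. It had 353, 416 and 389 in the Nrf1 libraries. In the Nrf2 libraries it had 404, 371 and 373. Every LacZ library was above every Nrf1 and Nrf2 library. *Ppargc1a* fell by 0.41 on the log2 scale with Nrf1 (0.75-fold of LacZ, SE 0.065, limma adjusted p = 1.97e-05) and by 0.42 with Nrf2 (0.75-fold, SE 0.065, limma adjusted p = 2.20e-05).

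*Ppargc1b*, the coactivator with the closest relation to *Ppargc1a*, had 188, 178 and 160 normalised read counts with LacZ. It reached 242, 276 and 233 with Nrf1. With Nrf2 it reached 282, 264 and 240. The lowest library of either factor was above the highest LacZ library. It rose 1.42-fold with Nrf1 (log2 fold change 0.51, SE 0.091, limma adjusted p = 6.76e-05) and 1.49-fold with Nrf2 (log2 fold change 0.57, SE 0.091, limma adjusted p = 2.71e-05). Both sit just under the 1.5-fold that the study used as its cutoff.

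Because the pair moved apart, the number of *Ppargc1a* reads per *Ppargc1b* read was also taken within each library, a choice made after their levels were seen. This ratio does not depend on the size factors. It was 2.77, 2.83 and 3.19 with LacZ, 1.46, 1.51 and 1.67 with Nrf1 and 1.43, 1.40 and 1.56 with Nrf2. The lowest LacZ value lay above the highest value of both factors, whose ranges overlapped each other. LacZ was already apart from both factors for each gene, in opposite directions, so its separation here follows from their levels and is no further result.

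*Lpin1*, whose product lipin 1 is a phosphatidic acid phosphatase that also coactivates PPARα together with PGC-1α, showed no difference past the test. It had 200, 181 and 213 normalised read counts with LacZ, 183, 212 and 201 with Nrf1, and 193, 202 and 195 with Nrf2. The 3 groups overlapped. Its log2 fold change was 0.0039 with Nrf1 (95% CI -0.18 to 0.19, limma adjusted p = 0.972) and -0.0068 with Nrf2 (95% CI -0.19 to 0.18, limma adjusted p = 0.952). Changes inside these intervals could not be seen with 3 libraries a group.

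**Figure D1:**
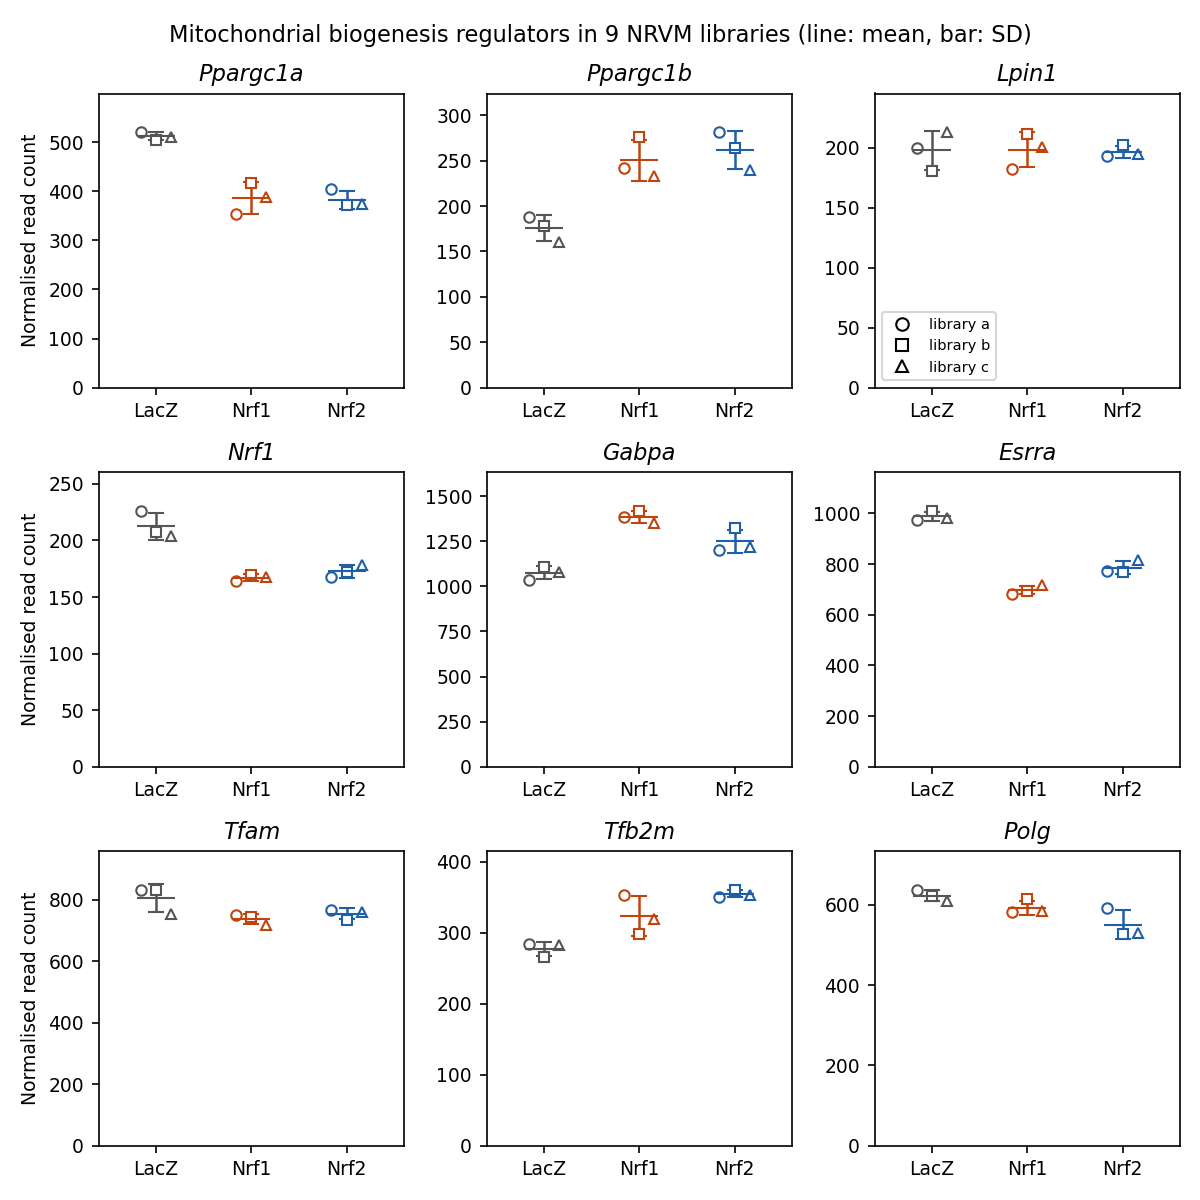
Normalised read count (vertical axes, from 0) of each of the 9 regulators in LacZ, Nrf1 and Nrf2 libraries. Each symbol is 1 library (circle a, square b, triangle c), the horizontal line is the mean of 3 libraries and the bar its SD. *Ppargc1a*, nuclear respiratory factor *Nrf1* and *Esrra* lie lower with both factors than with LacZ, *Ppargc1b*, *Gabpa* and *Tfb2m* lie higher, and *Lpin1* overlaps in all groups.

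Among the transcription factors, *Esrra*, which encodes ERRα, showed the largest decrease of the 9 genes with Nrf1. It had 975, 1010 and 982 normalised read counts with LacZ. With Nrf1 it had 683, 694 and 717, and with Nrf2 774, 769 and 816. The 3 groups did not overlap, with Nrf2 between LacZ and Nrf1. *Esrra* fell by 0.50 on the log2 scale with Nrf1 (0.71-fold of LacZ, SE 0.045, limma adjusted p = 1.25e-08) and by 0.33 with Nrf2 (0.80-fold, SE 0.045, limma adjusted p = 4.89e-06). Divided by the cardiomyocyte markers, the change with Nrf2 was -0.50.

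*Gabpa*, the DNA-binding subunit of the ETS factor GABP, which is also called nuclear respiratory factor 2 and is unrelated to the overexpressed Nrf2, moved the other way. It had 1037, 1108 and 1080 normalised read counts with LacZ, 1386, 1419 and 1351 with Nrf1, and 1203, 1324 and 1220 with Nrf2. Again the groups were separate, and Nrf2 lay between the others. *Gabpa* rose 1.29-fold with Nrf1 (log2 fold change 0.37, SE 0.045, limma adjusted p = 8.22e-07) and 1.16-fold with Nrf2 (log2 fold change 0.22, SE 0.045, limma adjusted p = 0.000462). Divided by the cardiomyocyte markers, the change with Nrf2 was 0.042. *Gabpb1*, its partner that carries the activating domain, is in the list of partner factors and fell by 0.53 with Nrf1 (limma adjusted p = 3.67e-05) and by 0.31 with Nrf2 (limma adjusted p = 0.00676) on the log2 scale. It was picked out after its values were seen.

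The number of *Gabpa* reads per *Esrra* read, again a description chosen after the levels were seen, was 1.06, 1.10 and 1.10 in the LacZ libraries. It was 2.03, 2.04 and 1.89 with Nrf1 and 1.55, 1.72 and 1.496 with Nrf2. No value of a group fell inside the range of another. Both genes were already separate between the groups and in opposite orders, so this separation follows from their levels and is no further result.

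Nuclear respiratory factor *Nrf1* had 226, 208 and 204 normalised read counts with LacZ, 164, 170 and 168 with Nrf1, and 167, 172 and 178 with Nrf2. The LacZ libraries were the 3 highest of the 9, and the other groups overlapped. It fell by 0.34 on the log2 scale with Nrf1 (0.79-fold of LacZ, SE 0.083, limma adjusted p = 0.00122) and by 0.30 with Nrf2 (0.81-fold, SE 0.083, limma adjusted p = 0.00494). Divided by the cardiomyocyte markers, the change with Nrf2 was -0.47.

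**Figure D2:**
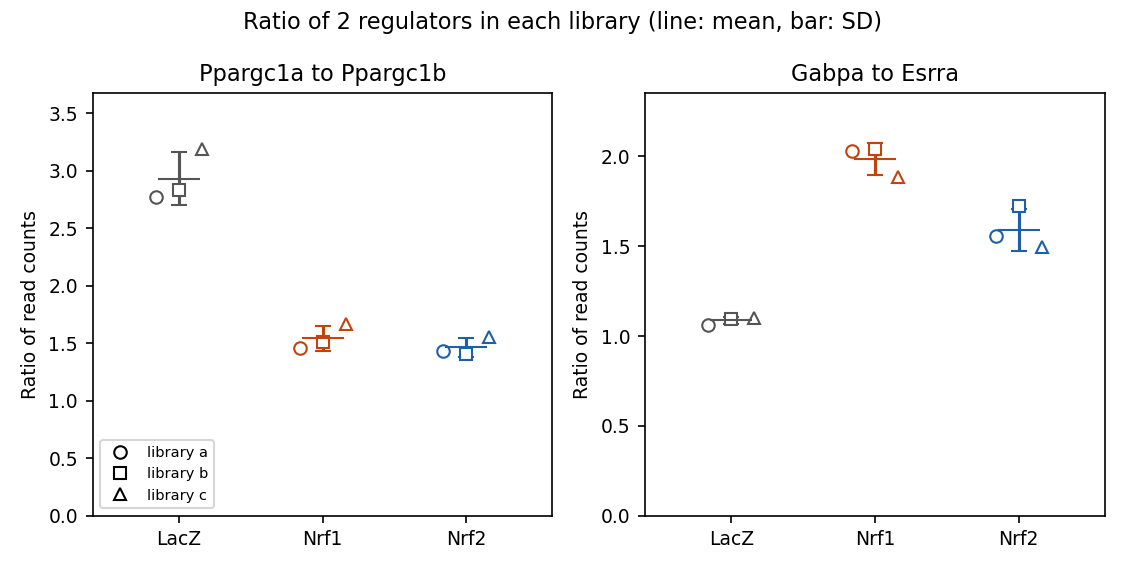
Ratio of the read counts of *Ppargc1a* to *Ppargc1b* (left) and of *Gabpa* to *Esrra* (right) in each library, on vertical axes from 0 with no unit. Symbols are libraries a, b and c, the line is the mean of 3 and the bar its SD. The *Ppargc1a* to *Ppargc1b* ratio is 2.77 to 3.19 with LacZ and 1.40 to 1.67 in the other 6 libraries, and the *Gabpa* to *Esrra* ratio is separate in all 3 groups. Both separations follow from the levels of the single genes.

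The 3 genes whose products act on mtDNA had log2 fold changes over LacZ between -0.18 and 0.35. *Tfam*, which packages mtDNA and starts its transcription, had 831, 831 and 754 normalised read counts with LacZ, 749, 743 and 717 with Nrf1, and 767, 735 and 760 with Nrf2. LacZ library c lay inside the Nrf2 range and just above the highest Nrf1 library. *Tfam* fell by 0.13 on the log2 scale with Nrf1 (0.92-fold, SE 0.050, limma adjusted p = 0.0286), and its log2 fold change with Nrf2 was -0.093 (95% CI -0.20 to 0.011, limma adjusted p = 0.117). With Nrf1 the change kept its direction but did not pass without LacZ library a (-0.10, limma adjusted p = 0.0984), LacZ b (-0.10, limma adjusted p = 0.0879), Nrf1 b (-0.13, limma adjusted p = 0.05003) or Nrf1 c (-0.11, limma adjusted p = 0.101).

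*Tfb2m*, the transcription factor that opens mtDNA promoters for the mitochondrial RNA polymerase, had 284, 266 and 282 normalised read counts with LacZ. It had 353, 298 and 319 with Nrf1 and 351, 360 and 354 with Nrf2. Both factors lay above LacZ, and Nrf1 library a reached the Nrf2 range. *Tfb2m* rose 1.28-fold with Nrf2 (log2 fold change 0.35, SE 0.071, limma adjusted p = 0.000313), and divided by the cardiomyocyte markers the change was 0.18. Its rise with Nrf1 was 1.16-fold (log2 fold change 0.22, SE 0.071, limma adjusted p = 0.0111) and no longer passed when libraries were scaled to total reads (0.15, limma adjusted p = 0.0677), re-centred on the median gene (0.16, limma adjusted p = 0.0554) or analysed without Nrf1 library a (0.15, limma adjusted p = 0.0820).

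*Polg*, the catalytic subunit of the polymerase that copies mtDNA, had 637, 621 and 611 normalised read counts with LacZ, 582, 613 and 584 with Nrf1, and 593, 528 and 530 with Nrf2. The Nrf2 libraries were all below LacZ, and Nrf1 library b overlapped LacZ. *Polg* fell by 0.18 on the log2 scale with Nrf2 (0.88-fold, SE 0.055, limma adjusted p = 0.00983), with an adjusted p of 0.0508 without Nrf2 library b. Divided by the cardiomyocyte markers, the change with Nrf2 was -0.35. With Nrf1 its log2 fold change was -0.070 (95% CI -0.19 to 0.046, limma adjusted p = 0.269), and it passed with totals scaling (-0.14, limma adjusted p = 0.0359) and with re-centring (-0.13, limma adjusted p = 0.0458).

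With Nrf1, 3 of the 9 regulators rose and 4 fell at an adjusted p under 0.05, against 35.6% and 32.6% of all 11302 genes tested. The libraries of both groups did not overlap for 7 regulators, as for 70.4% of all genes. With Nrf2, 3 rose and 4 fell, against 29.5% and 26.7% of all genes, and 7 did not overlap, as for 61.6% of all genes. The median absolute log2 fold change of the 9 was 0.34 with Nrf1, the same as over all genes (0.34), and 0.30 with Nrf2 against 0.25 over all genes. Both comparisons use the same LacZ libraries and are therefore not independent of each other.

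None of the 9 passed the cutoffs of the study, 1.5-fold and an adjusted p under 0.05, in either comparison by limma with trend or with voom weights. An unadjusted p under 0.05 was reached by 7 regulators with Nrf1 and 7 with Nrf2, of which 0 were past 1.5-fold. Of all genes, 27.8% passed these cutoffs with Nrf1 and 17.8% with Nrf2. In the order of absolute change, *Ppargc1b* was the most changed regulator in both comparisons, and larger changes were measured for 34.0% of all genes with Nrf1 and 19.4% with Nrf2. *Ppargc1b* with Nrf2 passed 1.5-fold when LacZ library a, LacZ library b or Nrf2 library c was left out.

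**Figure D3:**
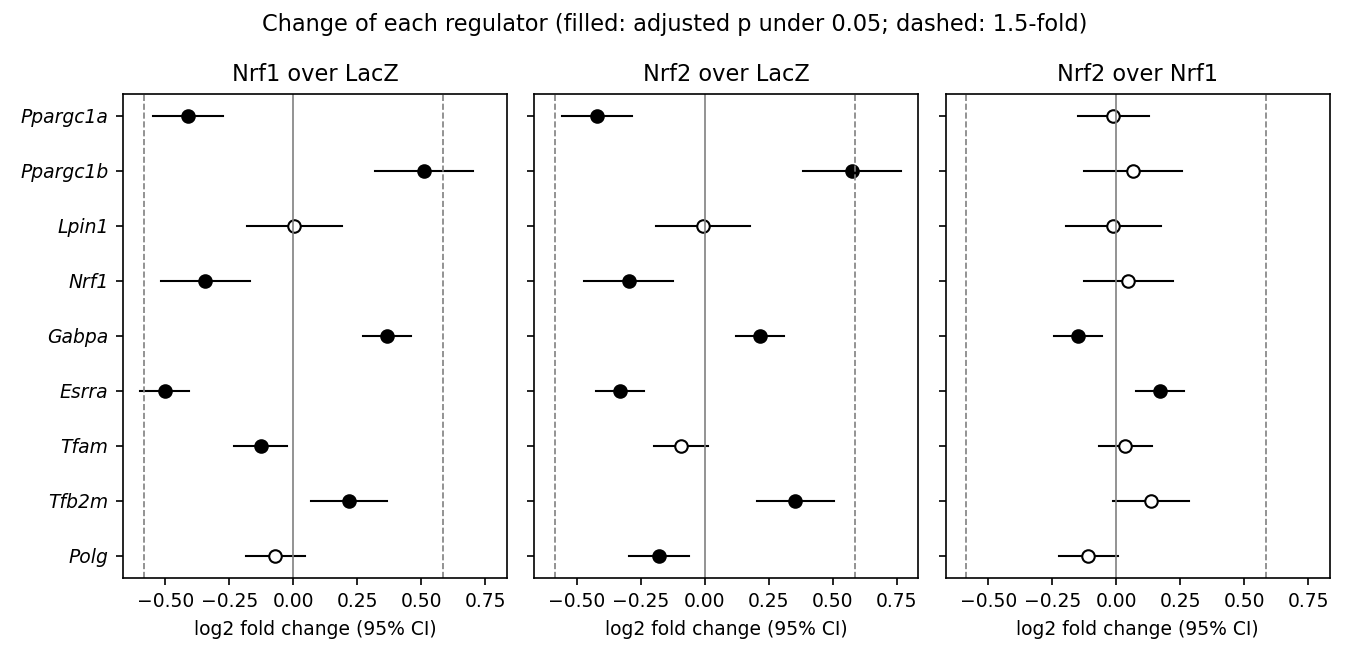
Log2 fold change of the 9 regulators (horizontal axes) with its 95% CI, for Nrf1 over LacZ, Nrf2 over LacZ and Nrf2 over Nrf1. Filled points have a limma adjusted p under 0.05, open points do not, and dashed lines mark 1.5-fold. With both factors *Ppargc1a*, nuclear respiratory factor *Nrf1* and *Esrra* are left of 0 and *Ppargc1b*, *Gabpa* and *Tfb2m* right of it, and only *Gabpa* and *Esrra* are filled when the factors are compared directly.

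Compared directly, the factors differed for a pair of the regulators. *Gabpa* was lower with Nrf2 than with Nrf1 by 0.15 on the log2 scale (log2 fold change -0.15, SE 0.045, limma adjusted p = 0.00827), and *Esrra* was higher (log2 fold change 0.17, SE 0.045, limma adjusted p = 0.00340). For both, the departure from LacZ was thus smaller with Nrf2. The *Gabpa* difference had an adjusted p of 0.0521 without Nrf2 library a. Divided by the cardiomyocyte markers, the differences were -0.30 for *Gabpa* and 0.021 for *Esrra*. One regulator rose and 1 fell, against 27.5% and 27.5% of all genes, and 2 did not overlap, as for 63.4% of all genes. None passed 1.5-fold, which 14.9% of all genes did, and an unadjusted p under 0.05 was reached by 2.

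For the other 7 regulators the difference between the factors did not pass the test. The intervals were -0.15 to 0.13 on the log2 scale for *Ppargc1a*, -0.13 to 0.26 for *Ppargc1b*, -0.20 to 0.17 for *Lpin1* and -0.13 to 0.22 for nuclear respiratory factor *Nrf1*. They were -0.069 to 0.14 for *Tfam*, -0.012 to 0.29 for *Tfb2m* and -0.22 to 0.0069 for *Polg*. The last 2 have 0 near one end. *Tfb2m* passed without Nrf1 library a (0.20, limma adjusted p = 0.0319) and *Polg* without Nrf2 library a (-0.16, limma adjusted p = 0.0250). The median absolute log2 fold change of the 9 between the factors was 0.065, against 0.24 over all genes.

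The levels of the 9 genes were steady within groups. Over the 27 sets of 3 libraries the coefficient of variation ranged from 1.43% to 8.99% with a median of 3.31%, and counting of reads alone gives 2.67% to 7.93% with a median of 4.83%. In 16 of the 27 sets the spread was below that of counting alone. With 3 values an SD lies below its expected value more often than above it. This count therefore does not mark the genes as steadier than counting alone. The lowest counts behind any value were those of *Ppargc1b* in LacZ library c (135 reads) and nuclear respiratory factor *Nrf1* in Nrf1 library c (147 reads).

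The genes around the 9 regulators were read from lists of their cofactors, upstream signals, mtDNA factors and targets. Of 14 coactivators and corepressors listed, 11 were tested, as were 20 of 22 partner factors, 19 of 20 upstream signals, 25 of 29 mtDNA factors and 14 of 16 genes for import and dynamics. Of the 11 coactivators and corepressors, 4 rose and 5 fell with Nrf1 (median log2 fold change 0.015), and 2 rose and 6 fell with Nrf2 (median -0.18). Over all genes, the reference for this and the lists that follow, 35.6% rose and 32.6% fell with Nrf1 (median 0.0085), and 29.5% rose and 26.7% fell with Nrf2 (median -0.0014). With the libraries scaled to total reads, 2 rose and 5 fell with Nrf1 (median -0.052), and 0 rose and 7 fell with Nrf2 (median -0.25). *Kat2a*, the acetyltransferase GCN5 that acetylates PGC-1α, was the member past 1.5-fold with Nrf1 (0.58-fold, limma adjusted p = 2.35e-07). With Nrf2 it fell to 0.73-fold (limma adjusted p = 0.000182). *Pprc1*, the third PGC-1 family gene, had a mean of 1132 ± 35.7 (SD, n = 3) normalised read counts with LacZ, 1001 ± 63.0 with Nrf1 and 961 ± 46.1 with Nrf2, and fell in both (log2 fold change -0.18 and -0.24, limma adjusted p = 0.00460 and 0.000645). It was picked out after its values were seen.

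Of 20 partner transcription factors and nuclear receptors, 6 rose and 8 fell with Nrf1 (median -0.047) and 4 rose and 7 fell with Nrf2 (median 0.022, and -0.054 when scaled to total reads), against 35.6% and 32.6% of all genes with Nrf1 and 29.5% and 26.7% with Nrf2. Those past 1.5-fold were receptors that rose. *Ppard*, a fatty acid receptor, rose 1.53-fold with Nrf1 and 1.94-fold with Nrf2 (limma adjusted p = 5.35e-08 and 1.94e-10). *Pparg*, a related receptor, rose 1.66-fold with Nrf1 from a LacZ mean of 60.6 normalised read counts (limma adjusted p = 0.000577), and the thyroid hormone receptor gene *Thrb* rose as well (log2 fold change 0.59, limma adjusted p = 2.22e-05). *Esrrg*, which encodes the ERR family member ERRγ and was picked out after its values were seen, had 737 to 809 normalised read counts with LacZ, 768 to 845 with Nrf1 and 728 to 800 with Nrf2. All 3 ranges overlapped.

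Of 19 upstream kinases, phosphatases and their partners, 8 rose and 4 fell with Nrf1 (median 0.076), which became 6 and 8 when scaled to total reads, and 5 rose and 4 fell with Nrf2 (median -0.0043), which became 5 and 8. Of all genes, 35.6% rose and 32.6% fell with Nrf1, and 29.5% and 26.7% with Nrf2. *Prkaa2*, a catalytic subunit of the energy sensor AMPK, rose with Nrf1 (log2 fold change 0.68, limma adjusted p = 6.93e-10). It also rose with Nrf2, by 1.38-fold (limma adjusted p = 2.46e-07). *Prkab2*, a regulatory AMPK subunit, rose 1.51-fold with Nrf2 (limma adjusted p = 0.000412) and 1.45-fold with Nrf1 (limma adjusted p = 0.000826). *Crtc1*, a coactivator of CREB, rose 1.62-fold with Nrf1 and 1.94-fold with Nrf2 (limma adjusted p = 8.61e-06 and 2.79e-07). *Camkk2*, a kinase upstream of AMPK, fell to 0.57-fold with both factors (limma adjusted p = 0.000399 and 0.000550).

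Of 25 other genes for mtDNA replication, transcription, RNA handling and nucleotide supply, 13 rose and 7 fell with Nrf1 (median 0.29), and 8 rose and 6 fell with Nrf2 (median 0.067). The shares of all genes were 35.6% and 32.6% with Nrf1 and 29.5% and 26.7% with Nrf2, near those of the list with Nrf2. Scaled to total reads, these counts were 12 and 7 with Nrf1 and 7 and 6 with Nrf2 (median -0.0091). *Slirp*, which holds mitochondrial mRNAs, had 215 to 292 normalised read counts with LacZ, 465 to 514 with Nrf1 and 356 to 390 with Nrf2. It rose 2.01-fold with Nrf1 and 1.55-fold with Nrf2 (limma adjusted p = 1.21e-08 and 8.39e-06). *Ssbp1*, the single-stranded DNA binding protein of the mtDNA replisome, rose 1.84-fold with Nrf1 (180 to 196 normalised read counts against 335 to 353, limma adjusted p = 7.72e-09). With Nrf2 its rise was 1.22-fold (limma adjusted p = 0.00350).

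*Peo1*, the symbol given here to the Twinkle helicase that unwinds mtDNA ahead of POLG, showed the largest rise of this list with Nrf2. It had 305 to 322 normalised read counts with LacZ, 426 to 475 with Nrf1 and 720 to 767 with Nrf2, with no overlap. Its rise with Nrf2 was 2.39-fold (log2 fold change 1.25, SE 0.058, limma adjusted p = 1.47e-12). Of the nucleotide supply genes, *Dguok* rose 1.62-fold with Nrf1 (limma adjusted p = 1.61e-05) and 1.44-fold with Nrf2 (limma adjusted p = 0.000473). *Rrm2b* rose 1.68-fold with Nrf2 (limma adjusted p = 0.000148), and with Nrf1 its log2 fold change was 0.58 (limma adjusted p = 0.00110). Others fell with both factors and were picked out after their values were seen. *Tk2* fell to 0.76-fold with Nrf1 and 0.80-fold with Nrf2 (limma adjusted p = 0.00913 and 0.0342), and *Slc25a33* to 0.78-fold and 0.77-fold (limma adjusted p = 0.00219 and 0.00186). *Top1mt*, the mitochondrial topoisomerase, fell to 0.57-fold with Nrf1 (limma adjusted p = 2.42e-06) and to 0.70-fold with Nrf2 (limma adjusted p = 0.000596). *Polg2*, the accessory subunit of POLG and picked out after its values were seen, had 140 to 165 normalised read counts with LacZ, 106 to 115 with Nrf1 and 97.1 to 115 with Nrf2, and fell in both (log2 fold change -0.45 and -0.50, limma adjusted p = 0.00109 and 0.000653).

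When the factors were compared directly, 3 of these 25 genes were higher with Nrf2 and 8 lower (median -0.11), against 27.5% higher and 27.5% lower over all genes (median -0.0028). The mitochondrial RNA polymerase gene *Polrmt* and *Tfb1m*, a relative of *Tfb2m* that methylates ribosomal RNA, were among the lower ones and were picked out after their values were seen. *Polrmt* had 135 to 168 normalised read counts with LacZ, 190 to 207 with Nrf1 and 143 to 149 with Nrf2. *Tfb1m* had 254 to 274 with LacZ, 306 to 334 with Nrf1 and 244 to 259 with Nrf2. For both, the Nrf1 libraries stood above all others. The mRNAs encoded by mtDNA itself were not analysed here.

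**Figure D4:**
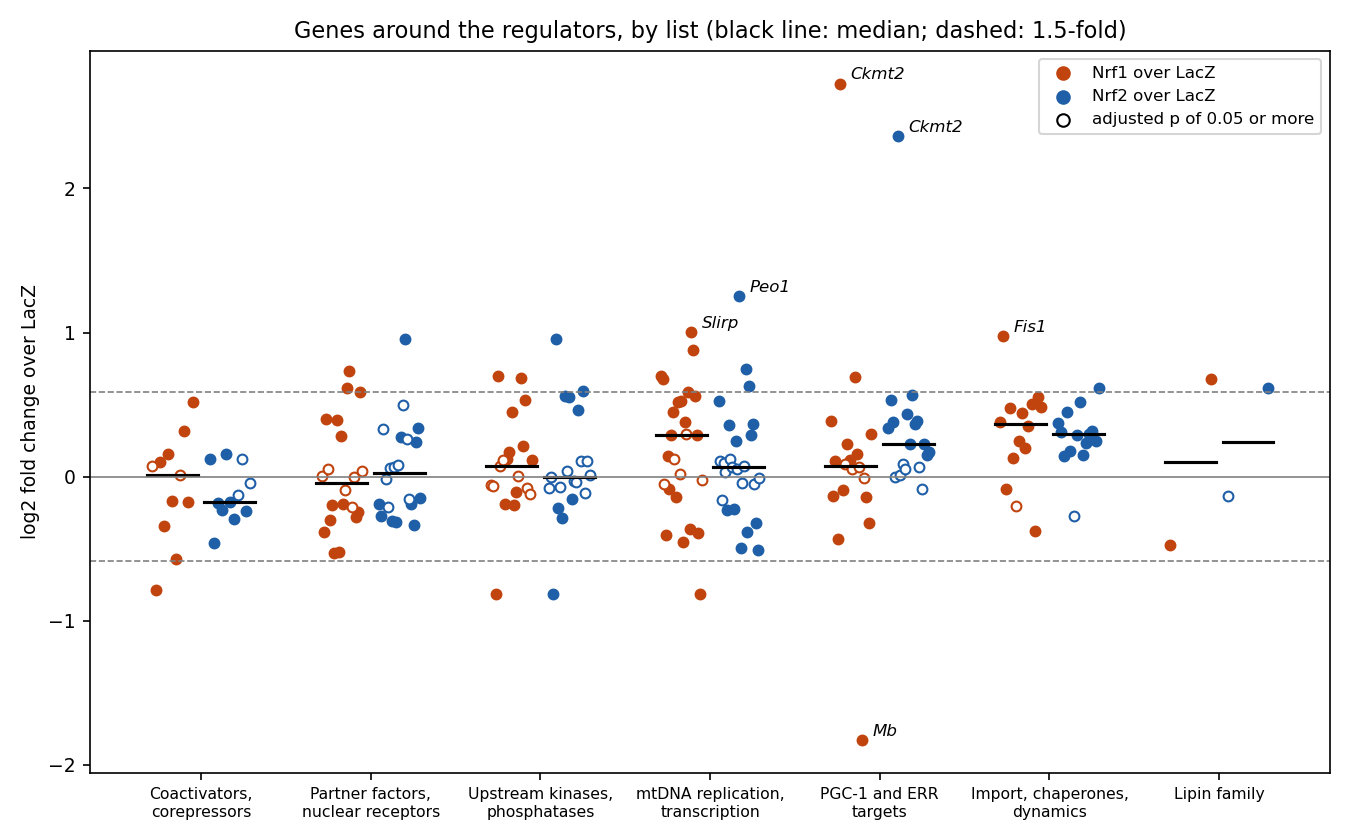
Log2 fold change over LacZ (vertical axis) of each gene in 7 lists around the regulators, in red for Nrf1 and in blue for Nrf2. Filled points have a limma adjusted p under 0.05, black lines are list medians and dashed lines mark 1.5-fold. *Ckmt2* lies highest with both factors (2.73 and 2.36), *Mb* lowest with Nrf1 (-1.83), and *Peo1* is the highest mtDNA gene with Nrf2 (1.25).

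The known target genes of PGC-1 and ERR in muscle metabolism were read the same way, and 18 of the 19 listed could be tested. Of these, 8 rose and 6 fell with Nrf1 (median 0.077), and 12 rose and 0 fell with Nrf2 (median 0.23), beside 35.6% and 32.6% of all genes with Nrf1 (median 0.0085) and 29.5% and 26.7% with Nrf2 (median -0.0014). Scaled to total reads, 6 rose and 6 fell with Nrf1, and 11 rose and 1 fell with Nrf2. Tested directly, 11 of the 18 were higher and 3 lower with Nrf2 than with Nrf1 (median 0.19), against 27.5% and 27.5% of all genes. Of the 11 cardiomyocyte markers, 8 were higher and 2 lower with Nrf2 than with Nrf1, and their part in this difference was not tested.

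*Ckmt2*, the mitochondrial creatine kinase of striated muscle, showed the largest change of all lists. It had 84.2 to 104 normalised read counts with LacZ, 623 to 660 with Nrf1 and 472 to 527 with Nrf2. It rose 6.62-fold with Nrf1 and 5.15-fold with Nrf2 (log2 fold change 2.73 and 2.36, SE 0.079 each, limma adjusted p = 1.03e-15 and 1.32e-14). *Mb*, the oxygen carrier myoglobin, had 610 to 792 normalised read counts with LacZ, 185 to 206 with Nrf1 and 701 to 767 with Nrf2. It fell to 0.28-fold with Nrf1 (limma adjusted p = 2.97e-13), while LacZ and Nrf2 overlapped. *Fabp3*, a fatty acid carrier, rose 1.61-fold with Nrf1 (limma adjusted p = 1.32e-09) and 1.48-fold with Nrf2 (limma adjusted p = 3.88e-08).

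Of 14 genes for protein import, chaperones and mitochondrial dynamics, 11 rose and 2 fell with Nrf1 (median 0.36), and 13 rose and 0 fell with Nrf2 (median 0.29), beside 35.6% and 32.6% of all genes with Nrf1 and 29.5% and 26.7% with Nrf2. Scaled to total reads, 10 rose and 2 fell with Nrf1, and 11 rose and 0 fell with Nrf2. *Fis1*, an outer membrane fission factor, rose 1.96-fold with Nrf1 (limma adjusted p = 2.18e-11) and 1.24-fold with Nrf2 (limma adjusted p = 0.000137). *Tomm70a*, an import receptor, rose 1.53-fold with Nrf2 (limma adjusted p = 4.26e-07) and 1.40-fold with Nrf1 (limma adjusted p = 4.83e-06). In the lipin family, *Lpin3* rose with both factors (log2 fold change 0.68 and 0.62, limma adjusted p = 0.000113 and 0.000417). *Lpin2* fell by 0.47 on the log2 scale with Nrf1 (limma adjusted p = 0.000133) and had a log2 fold change of -0.13 with Nrf2 (limma adjusted p = 0.222).

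The genes with the profile most like that of a regulator over the 9 libraries were found by Pearson correlation of log2 levels among the 8384 genes with a mean of at least 100. For *Ppargc1a* they were *Mxra8* (r = 0.985), *Rnaseh2a* (0.984) and *Vps39* (0.982). For nuclear respiratory factor *Nrf1* they were *Cmtm3* (0.985), *Bri3* (0.982) and *Adgrf5* (0.982). For *Tfam* they were *St7l* (0.941), *Ptpmt1* (0.937) and *Dennd6a* (0.928). The libraries fall into 3 groups, so these values describe mainly how the genes stand between the groups, and they share each library's depth and cell makeup.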

How the data were processed

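Poly(A) RNA of NRVMs was sequenced in 9 stranded libraries as 75-bp single-end reads. According to the methods and the submitters' processing notes, reads were checked with FastQC 0.11.4, aligned to Rnor 6.0 with HISAT2 2.0.4, stripped of duplicates with SAMtools 0.1.18, counted with featureCounts 1.6.0 and compared with edgeR 3.20.5. Removal of duplicates from single-end reads can lower high counts. The organism label names mouse, while the cells and the genome are rat. The signal values the authors deposited are, for each of 3 pairs of groups, the mean over a group's libraries of read counts divided by size factors. The tables also hold fold changes and p-values of the authors' comparisons, which were not used, and 0 columns of other samples. Symbols written as dates numbered 26 in each table with LacZ and were not matched.

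Since such a mean is a sum of 3 whole numbers, each times a fixed step, the reads of each library were solved for from the deposited means. The steps were read from the lowest recurring means, and both tables that hold a group were solved jointly. Of genes with a mean of at least 10, 99.9% (LacZ), 99.97% (Nrf1) and 100% (Nrf2) had 1 solution. Solved from each table alone, 1508, 1513 and 1563 genes with means of 10 to 40 gave the same reads in both tables for 100% of them. Median-of-ratios size factors computed from these reads differed from those of the authors by at most 0.032%. Reads were obtained for 14386 of 14443 genes. Replicate pairs had a mean chi-square per gene of 1.46 to 4.92 (1 is counting error alone) and a median of 0.55 to 1.05. No library was therefore counted as a copy of another. These values cannot tell technical replicates from separate cultures.

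Reads were divided by size factors over 9 libraries, and log2 values (pseudocount 1) were fitted with limma 3.58.1 (R 4.3.3, trend) in 1 model of 3 groups for 11302 genes with a mean of at least 10. No count model was run. The plan set limma on the log scale because the deposited values are means, and this was kept for the solved reads. Tests were two-sided with Benjamini-Hochberg adjustment over all genes. Fold changes are on the log2(value + 1) scale. The procedure was also run on simulated data, with the same added spread for all genes and far fewer changed genes than here. Its outcome is not reported here and is not used as support. The regulators and lists were chosen with earlier results of these data known. Named were every regulator, up to 3 genes per list and direction past 1.5-fold and adjusted p of 0.05 over LacZ, the 3 genes most correlated with each of 3 regulators, and others marked in the text. Genes on the lists that matched no gene with solved reads were not analysed, which does not mean that they lacked reads. Among them were the cardiomyocyte markers *Ttn*, *Mybpc3* and *Nppa*, so the cardiomyocyte marker sum lacks them. The alternatives were other pseudocounts, filters, scalings, voom, fits of 2 groups, deposited means, call thresholds and leaving out each library.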

Additional observations from a re-analysis of the deposited data

Results flagged for a closer look

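The effect over LacZ differed between Nrf2 and Nrf1 in the direct test for a pair of regulators, *Gabpa* (difference in log2 fold change -0.15, limma adjusted p = 0.00827) and *Esrra* (0.17, limma adjusted p = 0.00340). Each was separate between the factors in 3 of 3 libraries against 3 of 3. Divided by the summed cardiomyocyte markers of the same library, a setting chosen after seeing the data, the values were -0.30 for *Gabpa* and 0.021 for *Esrra*.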

How the results depend on the processing

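No regulator called at an adjusted p under 0.05 changed direction under any alternative run. Of the settings for single regulators, 480 kept the call or the value, 9 lost a call, 6 gained one and 18 moved a value. Part of the 480 could not move a log2 fold change: the filters on the mean, and leaving out a library of the group not compared. The ratio of deposited means had to be close, as the reads were solved from them. All 18 moved values came from division by the summed cardiomyocyte markers, a setting chosen after seeing the data. It moved all 9 regulators for Nrf2 over LacZ and for Nrf2 over Nrf1. For Nrf2 over LacZ, for example, *Gabpa* went from 0.22 to 0.042 and *Ppargc1a* from -0.42 to -0.60. With Nrf1 this sum stayed inside its LacZ range although 7 of the 11 markers fell. It could not show the part of cardiomyocyte content there, which was not tested. The lost and gained calls of *Tfam*, *Tfb2m*, *Polg* and *Gabpa* are given with their results, except that *Tfam* with Nrf2 passed when scaled to total reads (-0.17, limma adjusted p = 0.00730) and without LacZ library c (-0.14, limma adjusted p = 0.0279). Scaling to total reads moved the median of all genes to -0.058, -0.078 and -0.013. At 1.5-fold and an adjusted p under 0.05, 1289 genes rose and 1848 fell with Nrf1, 979 and 1029 with Nrf2 (801 and 1270 when scaled to total reads), and 1201 and 484 for Nrf2 over Nrf1. At the adjusted p alone these were 4018, 3686, 3332, 3014, 3111 and 3111, with 3 and 4, 3 and 4, and 1 and 1 regulators. At 2-fold they were 450, 986, 440, 393, 557 and 117. With a mean of at least 100, 900 genes fell with Nrf1, 602 rose and 470 fell with Nrf2, and 584 and 310 did for Nrf2 over Nrf1; here fewer genes were tested. Leaving out 1 library gave 1260 to 1341 and 1777 to 1852 genes with Nrf1, 913 to 1013 and 936 to 1044 with Nrf2, and 1118 to 1206 and 474 to 503 for Nrf2 over Nrf1, with 0 to 1 regulators past 1.5-fold for Nrf2 over LacZ and 1 to 2 higher by adjusted p for Nrf2 over Nrf1. The causes were not tested. No paired analysis was possible because the columns carry no replicate numbers.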
